A study of Mus musculus with 11 samples.

Results

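The 10 genes described here carry out or control peptide presentation by MHC class I molecules. They were chosen by name: the class I heavy chains H2-K1 and H2-D1, their light chain B2m, the peptide transporter subunits Tap1 and Tap2, the loading factor Tapbp, the immunoproteasome subunits Psmb8, Psmb9 and Psmb10, and the transactivator Nlrc5. Each name matched 1 of the 53700 gene rows of the count table, and all 10 were among the 16639 genes kept by the filter on low counts. The rule that names them uses no measured value, though earlier results of these data were known when it was written.

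Bulk RNA sequencing was done on cells labelled ST-HSC (short-term haematopoietic stem cells) that had been sorted from mouse bone marrow. The strain is given as C57BL/6j, in a field named cell line. Hosts of every group carried transplanted marrow of a Flt3-ITD, TET2 KO acute myeloid leukaemia (AML). Hosts were CXCL12 WT, titled Cre_neg, or CXCL12 KO, titled Cre_pos. Since the series title calls the deletion microenvironmental, they are named WT niche and KO niche here. The groups were WT vehicle (3 libraries, 240, 253 and 265), KO vehicle (2 libraries, 249 and 275), WT treated (3 libraries, 252, 262 and 266) and KO treated (3 libraries, 257, 263 and 276). Treated hosts had received cytarabine and doxorubicin, which block or damage DNA synthesis, together with the FLT3 kinase inhibitor quizartinib. The Cre driver, the ages of the mice, the timing of treatment and whether the sorted cells came from the leukaemia or the host are not given in the sources used here. Nothing in the labels says whether the libraries of a group are separate mice, so the p-values reflect the spread between libraries, which may be technical.

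Class I molecules show peptides from inside the cell to CD8 T cells. The peptides are cut by the proteasome, in which the inducible catalytic subunits Psmb8, Psmb9 and Psmb10 can replace Psmb5, Psmb6 and Psmb7. Tap1 and Tap2 together form the pump that carries the peptides into the endoplasmic reticulum, where Tapbp (tapasin) helps load them onto a heavy chain paired with B2m. Interferon-gamma raises most of these genes through the transcription factor IRF1, and Nlrc5 acts at the SXY module of their promoters.

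The promoters of 4 members are shown because they hold sequence motifs of the pathway's known regulators, and because Tap1 shares its window with Psmb9, a gene with other values in these libraries. RefSeq promoter windows were found for 8 of the 10 members, all but Tap2 and Nlrc5. Each holds 250 bases before and 50 bases after the start site on the gene's own strand. On build GRCm38.p6 they lie at chr17:34000284-34000583 for H2-K1 (minus strand), chr17:35262844-35263143 for H2-D1 (plus), chr2:122147437-122147736 for B2m (plus) and chr17:34187306-34187605 for Tap1 (plus). The counts were made on another build (GRCm39). Sequences run 5′ to 3′, and capitals mark matches to any of 3 motifs searched on both strands.
H2-K1: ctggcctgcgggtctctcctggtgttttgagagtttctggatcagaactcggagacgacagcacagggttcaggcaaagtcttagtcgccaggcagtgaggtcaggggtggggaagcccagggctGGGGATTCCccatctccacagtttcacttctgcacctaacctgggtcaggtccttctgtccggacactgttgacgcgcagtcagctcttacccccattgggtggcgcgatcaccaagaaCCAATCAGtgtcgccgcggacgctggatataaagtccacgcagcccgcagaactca
H2-D1: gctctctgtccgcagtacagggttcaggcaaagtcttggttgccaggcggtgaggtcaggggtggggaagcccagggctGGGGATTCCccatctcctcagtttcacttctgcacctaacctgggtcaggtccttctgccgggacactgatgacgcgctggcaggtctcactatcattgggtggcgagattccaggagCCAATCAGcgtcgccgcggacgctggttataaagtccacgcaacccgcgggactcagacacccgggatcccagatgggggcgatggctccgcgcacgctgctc
B2m: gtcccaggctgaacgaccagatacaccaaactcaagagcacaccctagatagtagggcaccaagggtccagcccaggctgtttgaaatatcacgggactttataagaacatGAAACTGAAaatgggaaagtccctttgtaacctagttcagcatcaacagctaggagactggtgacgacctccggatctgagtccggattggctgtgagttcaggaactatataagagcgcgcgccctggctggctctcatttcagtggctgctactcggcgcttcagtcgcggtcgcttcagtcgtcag
Tap1: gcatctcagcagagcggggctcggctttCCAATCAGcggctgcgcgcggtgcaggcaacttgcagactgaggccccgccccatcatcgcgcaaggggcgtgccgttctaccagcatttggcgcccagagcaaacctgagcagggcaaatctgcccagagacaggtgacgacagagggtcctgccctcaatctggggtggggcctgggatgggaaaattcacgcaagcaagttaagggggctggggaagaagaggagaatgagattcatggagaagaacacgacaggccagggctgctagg

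H2-K1 and H2-D1 each held the NF-kB motif GGGNNTTCC, as GGGGATTCC, and the Y box CTGATTGG of the SXY module, as CCAATCAG. B2m held the interferon regulatory factor motif GAAANNGAA, as GAAACTGAA. Tap1 and Psmb9 are transcribed away from each other from start sites 226 bases apart, so their windows share 275 bases, and the same Y box lies at position -222 from the Tap1 start and -11 from the Psmb9 start. No motif matched in the windows of Tapbp, Psmb8 and Psmb10. Among all 32851 promoter windows of this length, 5.82% held the NF-kB motif, 4.1% the Y box and 8.56% the interferon regulatory factor motif. Each motif was searched as a single fixed pattern, with N as any base, so variants with other letters or spacing would not be marked. The lack of a match therefore does not show that a window lacks such an element. A match describes the letters of a window and is not a measured binding site.

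Libraries held 8.13 to 31.1 M gene counts, and the 10 members took 0.418% to 1.48% of them. Every treated library had more gene counts than any vehicle library, so depth and treatment cannot be told apart. Reads outside genes were 5.98% to 30.4% of the reads in the table, with the highest share in KO treated library 257. Globin genes took 2.84% to 10.5% of the counts in the KO treated libraries, 1.83% in KO vehicle library 275 and at most 0.0998% elsewhere. Of the stem and progenitor markers, Kit was at 20.5 to 243 CPM (counts scaled to library size) and Cd34 at 111 to 497 CPM. Cd48 was at 184 to 900 CPM, Ly6a at 1.11 to 433 CPM and Mecom at 1.69 to 113 CPM. Meis1 stood at 6.36 to 78.7 CPM and Hoxa9 at 4.68 to 34.9 CPM. Procr and Hlf were at 0.0583 CPM in their lowest library and Gata2 at 0.233 CPM. Slamf1 had no count in 4 libraries and Fgd5 in 2. Granulocyte markers summed to 10524 CPM or more in every library. The B cell markers were mixed. Pax5, the transcription factor that maintains B cell identity, was at 1.03 CPM or less, but Cd79b was at 28.6 to 91.2 CPM. Vpreb1 and Igll1 each reached 29.0 CPM in their highest library.

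Levels differed widely within the pathway. Per kilobase of transcript, in WT vehicle libraries, B2m stood at 2355 CPM per kb ± 775 (SD, n = 3), H2-D1 at 1075 ± 463 and H2-K1 at 799 ± 207. The 3 immunoproteasome genes followed, with Psmb8 at 154 CPM per kb ± 24.6, Psmb9 at 138 ± 44.2 and Psmb10 at 131 ± 42.6. Tapbp stood at 71.4 CPM per kb ± 27.1, Tap1 at 40.0 ± 18.5, Tap2 at 20.7 ± 9.11 and Nlrc5 at 1.46 ± 1.44. The order was the same in all 4 groups except that Psmb9 had the higher mean of Psmb8 and Psmb9 in KO vehicle and WT treated libraries, and the libraries of those neighbours overlapped in every group. In WT vehicle libraries the neighbours H2-D1 and H2-K1, Psmb9 and Psmb10, Tapbp and Tap1, and Tap1 and Tap2 overlapped as well. B2m was above H2-D1 in every group without overlap, at the 99.9th percentile of genes tested per kilobase, and Nlrc5 was at the 37.0th to the 48.7th percentile of group means.

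In WT niche hosts, the immunoproteasome genes, B2m and the class I heavy chains were at higher levels in treated than in vehicle libraries. For 6 of the 10 members (H2-K1, H2-D1, B2m, Psmb8, Psmb9 and Psmb10) every treated library lay above every vehicle library, which 17.5% of all genes tested did. Tap1, Tap2, Tapbp and Nlrc5 overlapped between the groups. Log2 fold changes were positive for 9 of the 10 members, Tapbp being the exception, and with each library's trend over transcript length removed H2-K1 was the other. Their median was 0.61, beside 0.09 over all genes tested. None of the 10 passed edgeR's quasi-likelihood test at an adjusted p under 0.05, nor did any of the 16639 genes (0%). At an unadjusted p under 0.05, 4 members were higher, beside 10.1% of all genes, and 0 lower, beside 8.11%. DESeq2 called 1 member (Psmb9) among 1106 genes, and limma voom called 0 of each.

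**Figure D1:**
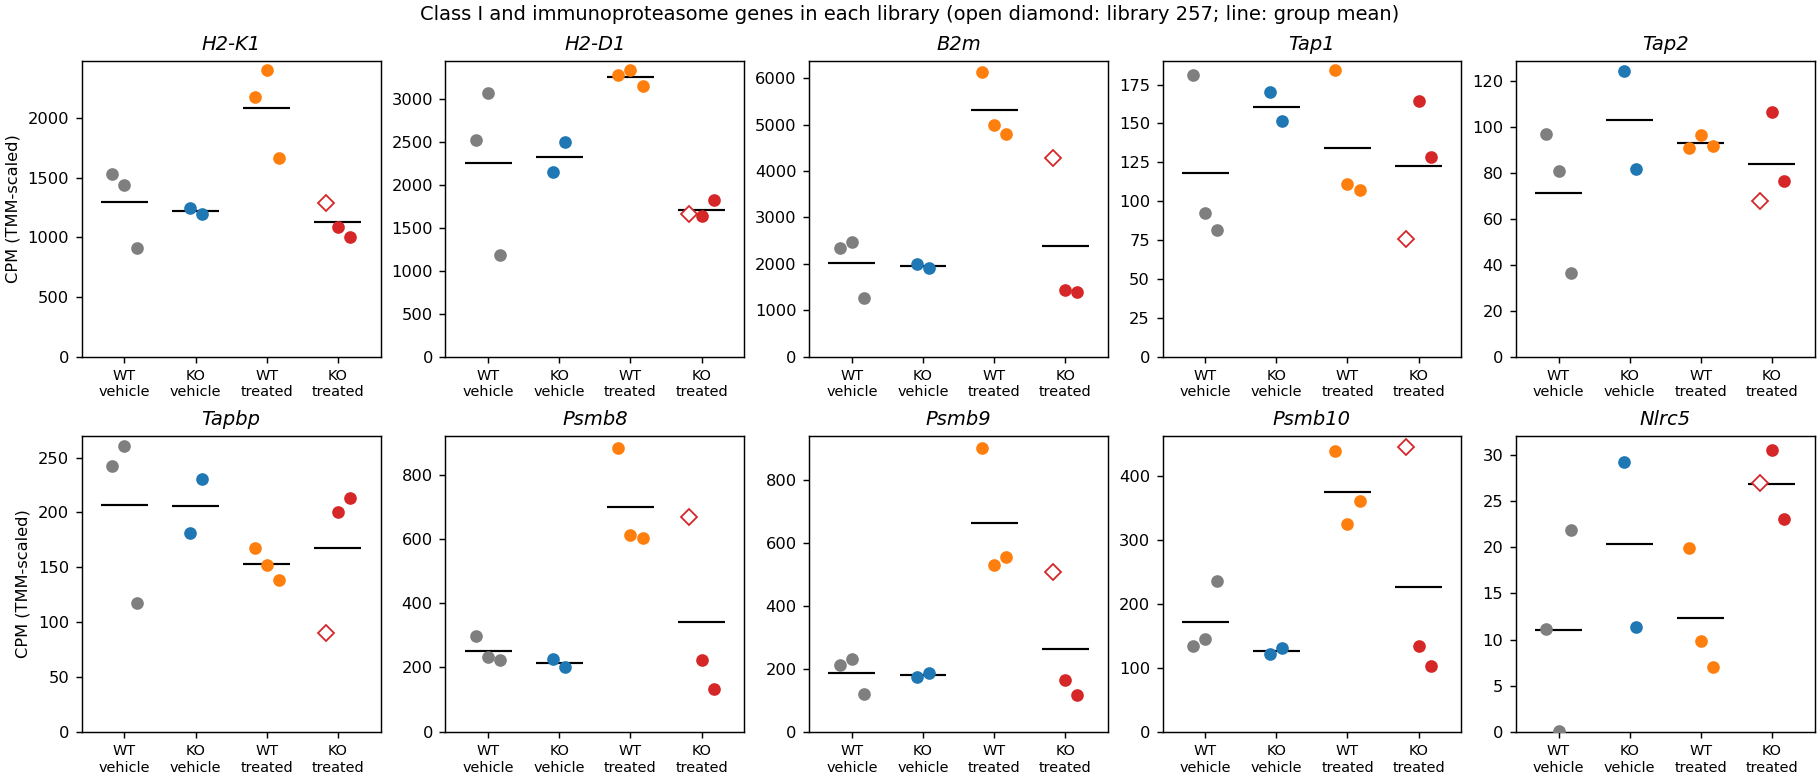
Level of each of the 10 genes in each of the 11 libraries, as CPM with TMM-scaled library sizes, in a panel for each gene with its own vertical axis starting at 0. Points are libraries, lines are group means, and the open diamond is KO treated library 257. In WT treated libraries B2m, Psmb8, Psmb9 and Psmb10 lie above all 5 vehicle libraries, and library 257 lies with them rather than with KO treated libraries 263 and 276.

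Psmb9, the immunoproteasome subunit that takes the place of Psmb6, had the smallest p of the members. It was at 213, 230 and 119 CPM in WT vehicle libraries 240, 253 and 265 and at 899, 529 and 555 CPM in WT treated libraries 252, 262 and 266. The lowest treated library was thus above the highest vehicle library, and the log2 fold change was 1.82 ± 0.52 (SE), 3.53-fold (edgeR adjusted p = 0.173).

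Psmb8, which takes the place of Psmb5, was at 296, 231 and 224 CPM in vehicle and 882, 611 and 603 CPM in treated WT niche libraries. Its groups did not overlap either, with 252 again the highest, and its log2 fold change was 1.48 ± 0.50 (edgeR adjusted p = 0.188). Psmb10, which takes the place of Psmb7, was at 133, 146 and 236 CPM in vehicle and 439, 325 and 360 CPM in treated libraries. Vehicle library 265 was the nearest to the treated libraries, and the log2 fold change was 1.13 ± 0.49 (edgeR adjusted p = 0.257).

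B2m, the light chain of every class I molecule, was at 2338, 2478 and 1260 CPM in vehicle and 6124, 4993 and 4802 CPM in treated WT niche libraries. All 3 treated libraries were far above the vehicle libraries, with a log2 fold change of 1.39 ± 0.48 (edgeR adjusted p = 0.191). H2-K1 was at 1530, 1439 and 911 CPM in vehicle and 2171, 2401 and 1666 CPM in treated libraries, where 266 was close to the highest vehicle library. H2-D1 was at 2523, 3072 and 1182 CPM in vehicle and 3277, 3333 and 3152 CPM in treated libraries, so treated libraries were tight and 253 came near them. The log2 fold changes of these heavy chains were 0.68 ± 0.32 and 0.53 ± 0.37 (edgeR adjusted p = 0.279 and 0.466). In bulk RNA such a difference cannot be told apart from more cells of a type that carries much of these transcripts.

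The transporter and loading genes, by contrast, overlapped between the groups. Tap1 was at 181, 92.4 and 81.2 CPM in vehicle and 185, 111 and 107 CPM in treated WT niche libraries, with 1 high library in each group (log2 fold change 0.18 ± 0.40, edgeR adjusted p = 0.844). Tap2 was at 96.9, 80.9 and 36.3 CPM and 90.8, 96.4 and 92.0 CPM, so the treated libraries lay inside the vehicle range. Tapbp was at 243, 261 and 117 CPM in vehicle and 168, 152 and 138 CPM in treated libraries, the treated ones lying between the vehicle extremes. Their log2 fold changes were 0.38 ± 0.37 and -0.44 ± 0.39 (edgeR adjusted p = 0.615 and 0.574). Nlrc5, the transactivator, was at 11.1, 0.0583 and 21.9 CPM in vehicle and 20.0, 9.89 and 7.07 CPM in treated libraries. Library 253 held a single Nlrc5 read where the other WT niche libraries held 137 or more, and the log2 fold change was 0.17 ± 1.10 (edgeR adjusted p = 0.953).

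**Figure D2:**
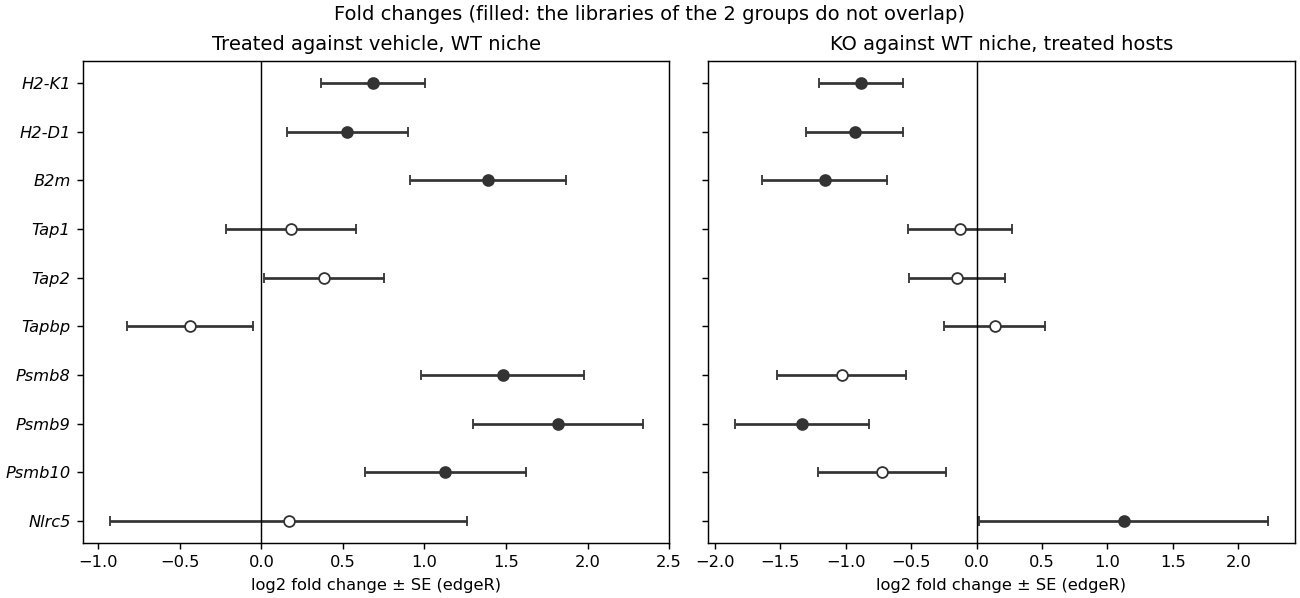
Log2 fold change of each of the 10 genes (edgeR, bars ± SE) for treated against vehicle in the WT niche, left, and for KO against WT niche in treated hosts, right. Filled points are genes whose 2 groups of libraries do not overlap. Psmb9 is at 1.82 on the left and -1.33 on the right, while Tap1, Tap2 and Tapbp lie within 0.44 of 0 in both.

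With the drugs given, the comparison named in the title of the series sets the KO niche against the WT niche. Here H2-K1, H2-D1, B2m and Psmb9 were lower in every KO treated library than in any WT treated library, and Nlrc5 was higher in every one. That is 4 of 10 members without overlap on the lower side, beside 9.56% of all genes, and 1 on the higher side, beside 9.71%. Log2 fold changes were negative for 8 of the 10 members, with Tapbp and Nlrc5 positive, and Tapbp turned negative with upper-quartile scaling and with the length trend removed. The members' median was -0.80, beside 0.10 over all genes tested. No member and no gene passed edgeR's test (0%), and at an unadjusted p under 0.05, 4 members were lower, beside 3.5% of all genes, and 0 higher, beside 7.13%. DESeq2 called 0 members among 249 genes. Limma voom called 6 members lower (H2-K1, H2-D1, B2m, Psmb8, Psmb9 and Psmb10), and it called 26.3% of all genes.

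H2-K1 was at 1283, 1089 and 1004 CPM in KO treated libraries 257, 263 and 276, against 1666 to 2401 CPM with the WT niche, a log2 fold change of -0.89 ± 0.32 (edgeR adjusted p = 0.434). H2-D1 was at 1663, 1638 and 1822 CPM, against 3152 to 3333 CPM, a log2 fold change of -0.93 ± 0.37 (edgeR adjusted p = 0.435). Both heavy chains were alike in the 3 KO treated libraries and below the whole WT treated group. Near-identical class I genes can share reads: 14.3% of the 50-base windows of the H2-D1 transcript and 8.79% of those of H2-K1 occurred in another gene's transcripts. Summed over 15 class I heavy chain rows, the log2 fold change was -0.93 (edgeR adjusted p = 0.435).

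B2m and the immunoproteasome genes split the KO treated group. B2m was at 4287 CPM in library 257 but at 1441 and 1401 CPM in libraries 263 and 276, against 4802 to 6124 CPM with the WT niche. Psmb9 was at 508, 163 and 117 CPM in the same order, against 529 to 899 CPM. For both genes library 257 was just below the lowest WT treated library and the other KO treated libraries were far below it. Psmb8 was at 670, 224 and 132 CPM, against 603 to 882 CPM, and Psmb10 at 445, 133 and 103 CPM, against 325 to 439 CPM, so library 257 lay within or above the WT treated range. The log2 fold changes were -1.16 ± 0.48 for B2m, -1.33 ± 0.51 for Psmb9, -1.03 ± 0.50 for Psmb8 and -0.72 ± 0.49 for Psmb10 (edgeR adjusted p = 0.444, 0.434, 0.489 and 0.648). Without library 257 they were -1.90, -2.25, -1.98 and -1.67, all 4 passed edgeR's test (smallest adjusted p = 0.00953), and 9.26% of all genes were called. H2-K1 and H2-D1 were not called without it (adjusted p = 0.0579 and 0.17 with edgeR). The 4 members with an unadjusted p under 0.05 became 1 without library 252, 262 or 276, 2 without 249 or 275 and 0 without 263.

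The calls for treatment also changed with this library. In the WT niche, treated against vehicle, edgeR called B2m, Psmb8, Psmb9 and Psmb10 when library 257 was left out of the model, although 257 is in neither group compared. The log2 fold changes then stood at 1.39, 1.48, 1.82 and 1.13, as with it, at adjusted p = 0.0246, 0.0161, 0.0150 and 0.0338, and 6.19% of all genes were called. With library 257 kept, a covariate for reads outside genes gave calls for the same 4 members (12.6% of all genes), and DESeq2 and a fit with no filter on low counts each called Psmb9. The common biological coefficient of variation with all libraries in was 0.783.

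Tap1 was at 75.4, 165 and 129 CPM in KO treated libraries, against 107 to 185 CPM with the WT niche, so the groups overlapped with 257 the lowest. Tap2 was at 68.0, 107 and 76.7 CPM, against 90.8 to 96.4 CPM, and Tapbp at 90.0, 201 and 213 CPM, against 138 to 168 CPM. In all 3 genes library 257 was the lowest of the KO treated group, opposite to its place for the immunoproteasome genes. The log2 fold changes were -0.13 ± 0.40, -0.15 ± 0.37 and 0.14 ± 0.39 (edgeR adjusted p = 0.955, 0.937 and 0.950). Nlrc5 was at 26.9, 30.5 and 23.1 CPM in KO treated libraries, against 7.07 to 20.0 CPM, with a log2 fold change of 1.12 ± 1.10 (edgeR adjusted p = 0.791).

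Where no drug was given, the niche genotypes were close in the median of the members with all libraries in. KO vehicle libraries held H2-K1 at 1243 and 1198 CPM and H2-D1 at 2154 and 2504 CPM. B2m was at 1992 and 1918 CPM there, and Psmb9 at 173 and 186 CPM. All of these lay below WT vehicle libraries 240 and 253 and above library 265, which had the fewest gene counts. The members' log2 fold changes ran from -0.45 to 0.89 with a median of -0.03, beside 0 over all genes. That median was -0.27 without library 265, 0.09 without 240 and 0.16 without 253. Over all genes it was 0.02, 0.06 and 0.02 in the same order. Psmb10, at 122 and 130 CPM, was the 1 member lower in both KO vehicle libraries than in any WT vehicle library, beside 7.47% of all genes. No member was called by edgeR (0%, smallest adjusted p = 0.851), DESeq2 or limma voom, and none had an unadjusted p under 0.05, beside 6.78% of all genes. Irf1 is a transcription factor of interferon-gamma responses. It was at 45.5 CPM ± 2.32 (SD, n = 2) with the KO niche and 75.01 ± 7.73 (n = 3) with the WT niche. These libraries did not overlap (log2 fold change -0.72 ± 0.31, edgeR adjusted p = 0.729). Of 29 class I regulators tested, 4 were lower and 0 higher without overlap, beside 7.47% and 13.2% of all genes.

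In the KO niche, treated against vehicle, log2 fold changes were positive for 5 members and negative for 5, from -0.45 to 0.85 with a median of 0.08, beside 0.12 over all genes. H2-D1 was lower in all 3 treated libraries than in both vehicle libraries, which 10.1% of all genes were, and no other member was without overlap. No member was called by edgeR (0%), DESeq2 or limma voom, and 0 had an unadjusted p under 0.05, beside 3.68% of all genes. The test of the difference between the niches in their response to treatment gave log2 values of -0.80 ± 0.47 for H2-K1, -0.97 ± 0.55 for H2-D1, -1.11 ± 0.70 for B2m and -1.27 ± 0.75 for Psmb9. No member passed it in edgeR (0%, smallest adjusted p = 0.773), DESeq2 or limma voom. At an unadjusted p under 0.05 it had 0 members with edgeR, beside 6.31% of all genes. That count was 5 without library 257, 4 with the covariate for reads outside genes and 6 with limma voom. The smallest adjusted p of a member in any alternative was 0.113, from edgeR without library 257.

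The standard catalytic subunits were compared within the same libraries to see whether inducible subunits had moved against them. Psmb5 was at 112 CPM ± 31.7 (SD, n = 3) in WT vehicle and 269 ± 16.03 (n = 3) in WT treated libraries, and Psmb6 at 243 ± 26.9 and 684 ± 16.4. Psmb7 was at 32.98 CPM ± 20.2 and 60.6 ± 3.84. All 3 were higher in every WT treated library than in any WT vehicle library, as were 17.5% of all genes. Their log2 fold changes were 1.26 ± 0.40, 1.49 ± 0.47 and 0.87 ± 0.45 (edgeR adjusted p = 0.179, 0.177 and 0.323). Without library 257 in the model edgeR called 2 of the 3 higher, beside 6.19% of all genes called. For the niche in treated hosts they were at -0.87 ± 0.40, -0.78 ± 0.46 and -0.58 ± 0.45 (edgeR adjusted p = 0.470, 0.582 and 0.713). Without library 257 edgeR called 2 of them lower there, beside 9.26% of all genes called. Standard and inducible subunits thus had log2 fold changes of the same sign in each of these comparisons. The values of the standard subunits are from fits that did not remove the trend with transcript length described below.

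The ratios of inducible to standard subunits, per base of transcript, overlapped between treated and vehicle libraries of the WT niche, and only Psmb9 to Psmb6 was without overlap between WT treated and KO treated libraries. The log2 ratio of Psmb9 to Psmb6 was -1.19 ± 0.37 (SD, n = 3) in WT vehicle, -1.28 ± 0.00 (n = 2) in KO vehicle, -0.85 ± 0.39 in WT treated and -1.36 ± 0.21 in KO treated libraries. As a linear ratio it was 0.463 to 0.755 in WT treated and 0.340 to 0.453 in KO treated libraries, a narrow gap, and both KO vehicle libraries were at 0.411. Library 257, at -1.38 on the log2 scale, lay between the other KO treated libraries here. The log2 ratio of Psmb8 to Psmb5 was 0.33 ± 0.65, -0.14 ± 0.13, 0.50 ± 0.40 and 0.19 ± 0.62 in the same order of groups, and that of Psmb10 to Psmb7 was 2.37 ± 1.39, 1.49 ± 0.08, 2.44 ± 0.21 and 2.05 ± 0.88. For both of these pairs the KO vehicle libraries lay below every WT treated library, and all other groups overlapped. These ratios were not tested.

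Psmb9 and Tap1, which share a promoter region, did not keep a fixed ratio. The log2 ratio of Psmb9 to Tap1 per base was 1.83 ± 0.56 (SD, n = 3) in WT vehicle and 3.43 ± 0.06 (n = 3) in WT treated libraries, where the 3 values lay between 3.38 and 3.50. In KO treated libraries it was 3.88 in 257 but 1.11 and 0.99 in 263 and 276. WT treated libraries and library 257 were therefore at the top and KO treated libraries 263 and 276 at the bottom. The exons of these genes overlap by 212 bases on opposite strands in the GENCODE annotation, and the kit does not keep the strand, so reads of that stretch could be counted for neither or the wrong gene. The log2 ratio of B2m to Tapbp ran the same way, from 5.07 ± 0.10 in WT vehicle to 6.87 ± 0.07 in WT treated libraries.

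**Figure D3:**
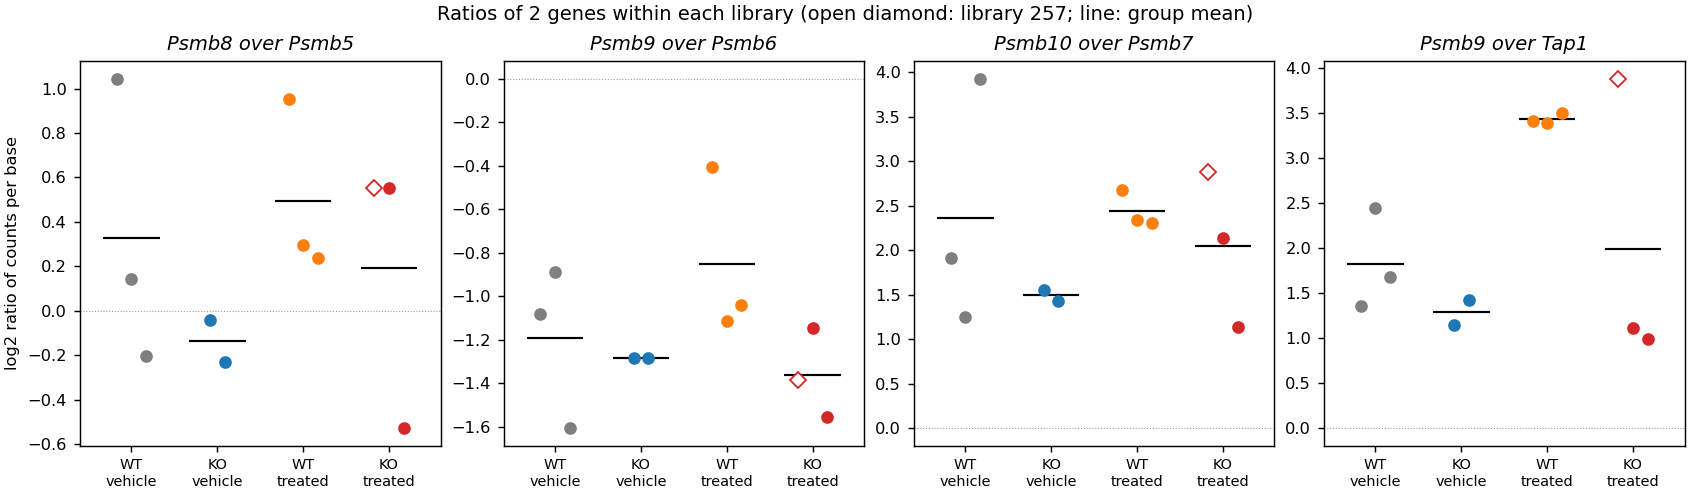
Log2 ratio of the counts per base of 2 genes within each library, for the inducible over the standard proteasome subunits (left 3 panels) and for Psmb9 over Tap1 (right). Points are libraries, lines are group means, and the open diamond is KO treated library 257. The inducible-to-standard ratios overlap between WT treated and WT vehicle libraries, Psmb9 over Psmb6 is higher in WT treated than in KO treated libraries by a narrow gap, and Psmb9 over Tap1 is 3.38 to 3.50 in WT treated libraries and 0.99 to 3.88 in KO treated libraries.

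Transcript length moved with these differences. The members that were higher in WT treated libraries have transcripts of 860 (B2m) to 2102 (H2-D1) bases, and Tapbp, Tap1, Tap2 and Nlrc5 have 2898, 2953, 3442 and 7578 bases. Over all genes, the median log2 fold change for treatment in the WT niche was 0.91 among transcripts under 1000 bases and -0.42 among those of 3500 bases or more. For the niche in treated hosts these medians were -0.59 and 0.68. Across genes, which are not independent replicates, Spearman's rho between length and a library's expression over the 11-library mean was -0.30, -0.40 and -0.34 for WT treated libraries and -0.22 for library 257, but 0.35 and 0.36 for libraries 263 and 276. Library 257 had the sign of the WT treated libraries in this trend, and it lay near or within their range for B2m, Psmb8, Psmb9 and Psmb10 but outside it for the other 6 members.

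With the length trend of each library removed, the log2 fold changes for treatment in the WT niche were 0.85 for Psmb9, 0.72 for Psmb8, 0.26 for B2m, 0.13 for Psmb10, 0.01 for H2-D1 and -0.10 for H2-K1. The median over all genes was then -0.29, so that relative to it these values were 1.15, 1.02, 0.55, 0.43, 0.30 and 0.20. Tap2 was at 0.44, Nlrc5 at 0.21, Tap1 at 0.14 and Tapbp at -0.58, or 0.74, 0.51, 0.43 and -0.28 relative to that median. Tap2 was thus above B2m under this setting, and Nlrc5 and Tap1 were not below Psmb10, H2-D1 and H2-K1. For the niche in treated hosts the values were -0.97 for Psmb9, -0.81 for H2-D1, -0.75 for Psmb8, -0.70 for B2m, -0.57 for Tap2, -0.49 for H2-K1, -0.43 for Tap1, -0.37 for Psmb10 and -0.16 for Tapbp, with a median over all genes of 0.03. Under that setting 9 of the 10 members were negative for the niche, Nlrc5 being the exception, and none was called in any comparison. With library 257 also left out, Psmb8 was at -1.48 and Psmb9 at -1.49 for the niche, and no member passed (smallest adjusted p = 0.0940).

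**Figure D4:**
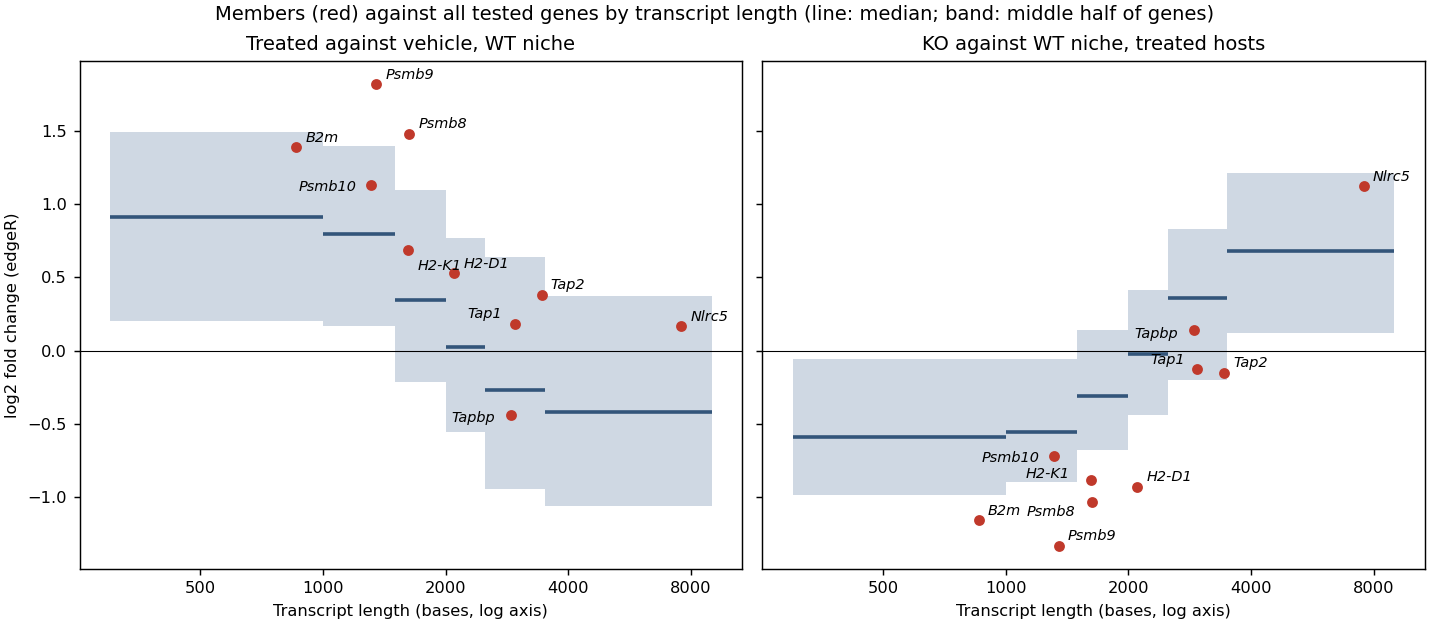
Log2 fold change (edgeR) against transcript length on a log axis, for treated against vehicle in the WT niche, left, and KO against WT niche in treated hosts, right. Lines are medians and bands the middle 50% of all genes tested in 6 length bins, and red points are the 10 members. The median of all genes falls from 0.91 in the shortest bin to -0.42 in the longest on the left and climbs from -0.59 to 0.68 on the right, and Psmb8 and Psmb9 lie outside the band of their bin in both panels.

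Other genes of the class I pathway were mixed. For the niche in treated hosts, 9 of 24 tested genes were positive (median log2 fold change -0.24). At an unadjusted p under 0.05, 3 were lower and 2 higher, beside 3.5% and 7.13% of all genes (edgeR called none). DESeq2 called none. Limma voom, which called 26.3% of all genes, called 5 higher and 6 lower. EdgeR without library 257, which called 9.26% of all genes, called 4 higher and 4 lower. With all libraries in, 1 of the 24 was higher and 2 were lower without overlap, beside 9.71% and 9.56% of all genes. H2-T23, a non-classical class I chain, was at 182 CPM ± 28.3 (SD, n = 3) in KO treated and 401 ± 126 (n = 3) in WT treated libraries without overlap (log2 fold change -1.14 ± 0.43). H2-Q7 was at 59.7 CPM ± 37.7 and 138 ± 43.2, and Erap1, which trims peptides in the endoplasmic reticulum, had the higher mean with the KO niche, at 87.5 CPM ± 64.4 against 26.6 ± 6.30. For treatment in the WT niche 12 of 24 were positive, with a median of -0.02. At an unadjusted p under 0.05, 5 were higher and 3 lower, beside 10.1% and 8.11% of all genes. DESeq2 called 2 lower here, beside 6.65% of all genes called. EdgeR without library 257 in the model called 3 higher and 3 lower, beside 6.19%. Psme2, a subunit of the proteasome activator PA28, was at 677 CPM ± 197 in treated and 240 ± 52.6 in vehicle libraries, and Pomp, which helps assemble proteasomes, at 504 ± 126 and 181 ± 17.5. Mr1, which presents vitamin B metabolites, was at 5.08 CPM ± 2.01 in treated and 24.9 ± 8.86 in vehicle libraries. Among these 3 genes the treated and vehicle libraries did not overlap, and the adjusted p was 0.177, 0.182 and 0.173 with edgeR. In all, 5 of the 24 were higher and 5 lower without overlap, beside 17.5% and 10.1% of all genes.

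Regulators of the class I genes were split in direction. Of 29 tested, 14 were positive for the niche in treated hosts (median -0.03) and 9 for treatment in the WT niche (median -0.21). Jak1, a kinase of interferon receptors, was lower with treatment in the WT niche (log2 fold change -1.01 ± 0.32) and higher in treated hosts with the KO niche (1.02 ± 0.32), opposite in sign to the class I chains, and these comparisons share the WT treated libraries. Irf8 is a transcription factor of the monocyte and dendritic lineages. It was at 279 CPM ± 58.2 in KO treated and 503 ± 133 in WT treated libraries without overlap (log2 fold change -0.85 ± 0.34). Of the 29 regulators, 2 were higher and 2 lower without overlap in that comparison, beside 9.71% and 9.56% of all genes. Of the 24 interferon-stimulated genes, 13 were negative for the niche in treated hosts (median -0.15) and 16 positive for treatment in the WT niche (median 0.56). Rsad2 and Gbp7 were higher in all KO treated libraries (log2 fold change 4.53 ± 1.77 and 0.81 ± 0.30), unlike B2m and Psmb9, which are also interferon-induced. Igtp, an interferon-induced GTPase, went the same way as B2m and Psmb9, at 34.2 to 36.2 CPM in KO treated against 40.0 to 66.5 CPM in WT treated libraries (log2 fold change -0.58 ± 0.35). In all, 2 of the 24 were higher and 2 lower without overlap, beside 9.71% and 9.56% of all genes. No regulator or interferon-stimulated gene passed edgeR's test. In treated hosts 1 regulator was higher, 1 was lower and 2 interferon-stimulated genes were higher at an unadjusted p under 0.05. Among all genes 7.13% were higher and 3.5% lower at that p. For this comparison DESeq2 called none of either list. Limma voom, which called 26.3% of all genes, called 8 regulators higher and 2 lower, and 2 interferon-stimulated genes higher and 1 lower. Without library 257, edgeR called 3 regulators higher and no interferon-stimulated gene, beside 9.26% of all genes called. For treatment in the WT niche, DESeq2 called 2 regulators lower, and edgeR without library 257 called 3 lower, beside 6.65% and 6.19% of all genes called.

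The MHC class II genes, which present peptides to CD4 T cells, had negative log2 fold changes in treated hosts, as the class I chains did. All 9 had negative log2 fold changes for the niche in treated hosts (median -1.92). Of these, 7 had an unadjusted p under 0.05 with edgeR, beside 3.5% of all genes that were lower at that p (edgeR called none). DESeq2 called none either. Limma voom called 7 lower, beside 26.3% of all genes called, and edgeR without library 257 called 2 lower, beside 9.26%. H2-Ab1 was at -2.31 ± 0.82 and H2-DMa at -1.55 ± 0.53. All 9 were positive for treatment in the WT niche, with a median of 1.51. But 1 had an unadjusted p under 0.05 with edgeR, beside 10.1% of all genes higher, and 2 were without overlap, beside 17.5%. In vehicle hosts all 9 were negative for the niche (median -1.14), where the median of the 10 members was -0.03. There 0 of the 9 had an unadjusted p under 0.05, beside 6.78% of all genes. Their summed level was 9860 to 27263 CPM in WT treated and 1480 to 5424 CPM in KO treated libraries, with no overlap, and 1239 to 11261 CPM in WT vehicle libraries, which overlapped WT treated. Library 257, at 5424 CPM, was below every WT treated library, as it was for H2-K1 and H2-D1.

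Markers of other cell types also differed between these groups. In treated hosts all 12 erythroid markers were higher in every KO treated library than in any WT treated library, beside 9.71% of all genes. They summed to 19908 to 95462 CPM against 245 to 606 CPM. In vehicle hosts all 12 were positive for the KO niche as well (median log2 fold change 4.11), beside 48.7% of all genes. There 6 were higher without overlap, beside 13.2% of all genes. Their sums in vehicle hosts, 442 to 15705 CPM against 150 to 1018 CPM, overlapped. Of 12 granulocyte markers 11 had a negative log2 fold change in treated hosts, beside 46.1% of all genes. The 12 summed to 10524 to 34859 CPM against 31197 to 156307 CPM. Dendritic cell markers summed to 187 to 455 CPM against 518 to 858 CPM, with 6 of 8 negative. With edgeR 0 of the 8 had an unadjusted p under 0.05. Over all libraries Flt3, Bst2 and Cd209a reached 340, 339 and 297 CPM, and the other markers of this list 67.4 CPM or less. Monocyte and macrophage markers summed to 655 to 2435 CPM against 3342 to 4414 CPM. Only 3 of these 9 monocyte and macrophage markers were negative (median log2 fold change 0.82), and Ly6c2, at 332 to 2235 CPM against 3066 to 4210 CPM, made up much of the sum. In the WT niche all 8 B cell markers were positive for treatment, summing to 75.2 to 152 CPM against 52.3 to 60.5 CPM, while Pax5 had no count in 6 of the 11 libraries and at most 1.03 CPM. Of the T and NK cell markers 9 of 10 were positive for treatment, summing to 1019 to 1772 CPM against 556 to 748 CPM, with Cd3e at no count in 6 libraries and Nkg7 making up much of the sum. The part of these cell types in the levels of the class I genes was not tested.

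The members did not vary as a single block over the 11 libraries, which share depth, length trend and group differences. Among the 45 pairs of members, Pearson's r of log2 CPM ran from -0.77 (Tapbp with Psmb10) to 0.99 (B2m with Psmb9), with a median of 0.29 and 29 pairs above 0. B2m, Psmb8, Psmb9 and Psmb10 ran together, with r from 0.82 to 0.99, as did H2-K1 and H2-D1 (0.86) and H2-K1 and B2m (0.88). Among 8324 other genes with a mean log2 CPM of at least 3, the pattern nearest to the mean of the 10 members was that of H2-T23 (r = 0.95 over 11 libraries), followed by H2-DMb2 (0.94), Sdf2 (0.93), Mrpl39 (0.92) and H2-DMa (0.92). The next were BC028528, Dtd2, Bloc1s2, Prdx1 and Tm2d1, the last at 0.90. These values describe the 11 libraries and carry no test.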

How the data were processed

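Bulk RNA was sequenced from 11 libraries of sorted mouse cells in 4 groups. The authors deposited 1 table of unnormalized whole-number counts, with a row for each Ensembl gene ID, and 5 summary lines (reads outside genes 5.98% to 30.4%, ambiguous 2.34% to 6.31%, at several places 11.6% to 30.0%) that were left out. Per the labels' protocols, SMARTer Ultra Low Input kits gave the cDNA and Nextera XT the libraries, neither of which keeps the strand. The submitters' processing notes name bcl2fastq, Trim Galore 0.6.7, STAR 2.7.9a, HTSeq 0.6.7, DESeq2 and build GRCm39, and the annotation release, strand setting and read length are not given in the sources used here.

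Counts of all genes kept by filterByExpr (16639) were scaled with TMM and fitted in 1 quasi-likelihood model of the 4 groups with edgeR 4.0.16 in R 4.3.3, with the robust option. There were 5 contrasts, each with Benjamini-Hochberg adjustment over all genes tested and calls at an adjusted p under 0.05. The SE was taken from the F statistic, as the size of the log2 fold change over the root of F. CPM use TMM-scaled library sizes. Lengths are those of the principal GENCODE transcript of an earlier build and were found for 99.7% of the genes tested. The fit was also run on simulated counts without a length trend, with planted changes larger than those of the members in the main fit. That run does not show whether changes of the members' size could be called. The members and lists were chosen with earlier results of these data known. All 10 members are named, with up to 4 genes of each list and contrast with the smallest p, in part, and the 10 genes nearest in pattern. Pax5, Cd79b, Vpreb1, Igll1, Ly6c2, Cd3e, Nkg7, Flt3, Bst2, Cd209a and the stem and progenitor markers were named after their values were seen.

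Alternatives were DESeq2 size factors, upper-quartile scaling, no filter, a mean CPM of at least 10, DESeq2 1.42.0, voom of limma 3.58.1 with quality weights, a fit without the robust option, a fit of the compared libraries alone, each library left out, 253 and 265 left out together, a covariate for reads outside genes, and the length trend of each library (lowess, span 0.3) removed. The last was also run without 257, which was chosen after seeing the data.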

Additional observations from a re-analysis of the deposited data

How the results depend on the processing

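No paired analysis was possible because the groups share no replicate numbers. Of 119 alternative counts of called members, 113 were 0, as in the main edgeR fit. For treatment in the WT niche, 1 member (Psmb9) was called with no filter on low counts and 1 with DESeq2, and 4 members (B2m, Psmb8, Psmb9 and Psmb10) were called with a covariate for reads outside genes, which called 12.6% of all genes. For the niche in treated hosts, 6 were called with limma voom. Leaving out 1 library gave 0 to 4 called members in each of these comparisons, with the 4 coming without library 257, and 0 to 0 in the others. Leaving out 253 and 265 together leaves 1 WT vehicle library, whose spread is assumed to be that of the other groups. The treatment median of the members was then 0.52, beside 0.24 over all genes. In the main edgeR fit 4 members had an unadjusted p under 0.05 for treatment in the WT niche. That count was 3 to 5 with 1 library left out and 0 with the length trend removed. Of 554 alternative log2 fold changes of members, 519 kept direction and side of the threshold, 20 passed it and 15 turned sign. These cover all members for the niche in treated hosts and for treatment in the WT niche. For the difference between the niches in their response they cover H2-K1, H2-D1, B2m and Psmb9. The fold changes of the other comparisons, whose medians were nearer those of all genes, were not counted. For the niche in treated hosts, Tapbp ran from -0.13 to 0.44 over the libraries left out and was -0.084 with upper-quartile scaling, -0.01 without 263, -0.13 without 276 and -0.16 with the length trend removed, Tap1 ran from -0.38 to 0.17 over the libraries left out and was 0.25 with voom, 0.17 without 252 and 0.12 without 257, and Tap2 was 0.046 with voom. For treatment in the WT niche, Nlrc5 ran from -0.42 (without 253) to 1.23 (without 265) and was -0.37 without 252, Tap1 ran from -0.12 (without 252) to 0.63 (without 240) and was -0.33 without 253 and 265 and -0.11 with the covariate, and H2-K1 was -0.10 with the length trend removed, with or without 257. The cause was not tested for any of these. Upper-quartile scaling moved the median of all genes for treatment in the WT niche from 0.09 to 0.32 and that of the members to 0.85. Groups of 2 or 3 libraries, a biological coefficient of variation of 0.783 and, for Nlrc5, 1 read in library 253 limit what could be called.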
